A study of Ovis aries with 2 samples.

Results

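The neurons described here are 95 nuclei of adult sheep cerebral cortex that carried high nuclear RNA for NXPH1, a secreted ligand of neurexins, and ALK, a receptor tyrosine kinase. They were chosen by measured values. A barcode of the pre-processed library was taken when it had at least 2000 unique molecular identifiers (UMIs, 1 per captured RNA molecule), at least 4000 counts per 1000000 UMIs (CPM) of SYT1, a calcium sensor of synaptic vesicles, and at least 5 UMIs and 2000 CPM of NXPH1 and ALK summed. The summed level of PDGFRA, LHFPL3, VCAN and GPR17, genes of oligodendrocyte precursors, had to stay under 3000 CPM. These limits kept 95 of 832 neurons, or 11.4% (exact Clopper-Pearson 95% interval 9.34 to 13.8%), which were 95 of 1249 barcodes at that depth and 4.47% of all 2125 barcodes of the library. Nuclei of this kind carry the working name SST/LHX6-type interneurons. Since SST and LHX6 were each found in part of them only, they are called NXPH1/ALK neurons below.

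Cortical interneurons are local neurons that release GABA and restrain excitatory neurons. Many of them are born in the medial ganglionic eminence of the embryo, where the homeobox factor LHX6 acts downstream of the regional patterning genes and steers their migration and fate. One branch makes the peptide somatostatin, encoded by SST, and mainly contacts dendrites. Another makes the calcium buffer parvalbumin, encoded by PVALB, and contacts cell bodies, while interneurons of the caudal ganglionic eminence include cells marked by VIP, RELN or NDNF. The DLX homeobox factors are shared by all of these lineages.

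The series holds 2 single-nucleus libraries of cerebral cortex from an adult female wildtype Rambouillet sheep, for which the labels give an age of 18 to 36 months and no in vivo treatment. In the pre-processed group (1 library) the dissected cortex went straight to nuclei isolation, and in the post-processed group (1 library) debris and red blood cells were removed first, to ask how that step alters the makeup of cell types. For the second group the treatment label speaks of no such removal, against the title and the series design, and the title was followed. Both libraries carry the same batch label and both come from 1 animal, so there is no replicate of either condition and no p-value is given anywhere. All intervals cover counting error only, since nuclei of 1 library are not replicates. The deposited barcodes numbered 2125 before processing (9580441 UMIs) and 905 after it (794203 UMIs), beside the roughly 5000 nuclei per condition that the study names, and 0 barcode sequences were shared. The files as used here list 9847 of 21300 protein-coding sheep genes, and every CPM value refers to the listed genes. The listed set leaves out GAD1 and the other genes of GABA synthesis and transport, which are not analysed here. No doublet caller was run, and the level of excitatory genes in the NXPH1/ALK neurons is given instead.

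The NXPH1/ALK neurons held 704209 UMIs, or 7.35% of the library, at a median of 6665 UMIs per nucleus (quartiles 3951 to 9684.5, range 2098 to 33170). They were set beside 3 other sets of the same library. The first were 725 remaining neurons (median 6456 UMIs), which passed the depth, SYT1 and precursor limits. They belonged neither to the NXPH1/ALK neurons nor to the RELN/VIP neurons described next. The second were 12 RELN/VIP neurons outside the NXPH1/ALK set (median 5483.5 UMIs), in which RELN and VIP summed reached 5 UMIs and 2000 CPM. RELN made nearly all of that sum, because VIP had 4 UMIs in 1 of the 12 nuclei. NXPH1/ALK neurons that also passed 2000 CPM of RELN stayed in their own set, where RELN reached 19568 CPM. The 12 nuclei are thus not all neurons of the library with that much RELN. The third were 98 barcodes with at least 5 UMIs and 1000 CPM of the oligodendrocyte genes UGT8, ERMN, ST18 and CLDN11 and with SYT1 under its limit (median 3205 UMIs). These show how much of a neuronal gene is found in nuclei that should lack it.

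The 2 genes of the rule were spread widely over the neurons. NXPH1 and ALK summed were at 0 UMIs in 537 of the 832 neurons, above 0 and under 1000 CPM in 178, and at 1000 to 2000 CPM in 22. Above the limit, 22 neurons had under 4000 CPM, 38 had 4000 to 8000 CPM and 35 had at least 8000 CPM, with a median of 6610 CPM and a highest value of 17353 CPM. The 5 neurons closest to the limit from above lay at 2060, 2061, 2160, 2314 and 2405 CPM. The 5 closest from below lay at 1783, 1844, 1882, 1903 and 1951 CPM. None of those 5 had an LHX6 or an SST UMI, while of the 5 just inside 2 had an LHX6 UMI and 1 an SST UMI. These values describe the choice of nuclei and support nothing further.

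**Figure D1:**
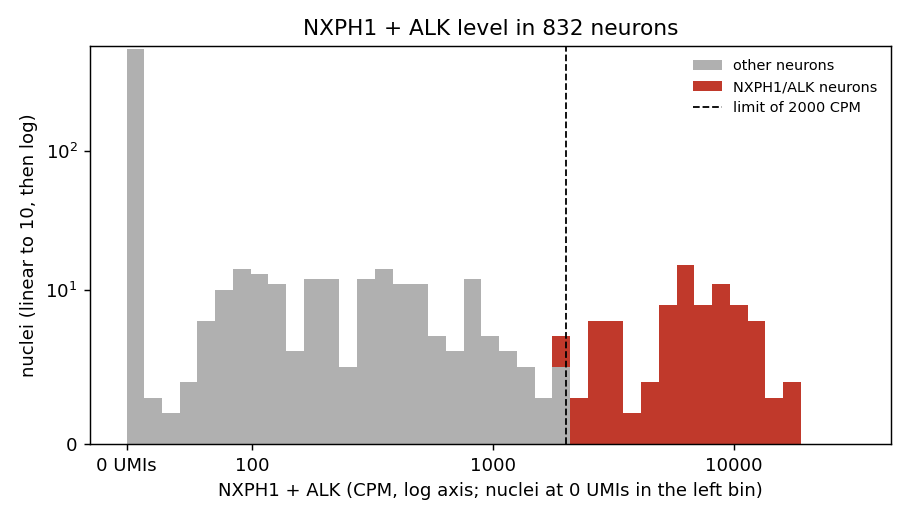
Histogram of the summed NXPH1 and ALK level (horizontal axis, CPM, log scale with nuclei at 0 UMIs in the left bin) over 832 neurons of the pre-processed library (vertical axis, number of nuclei, linear to 10 and logarithmic above). The 95 NXPH1/ALK neurons (red) lie to the right of the dashed limit of 2000 CPM and reach 17353 CPM, while 537 of the other neurons (grey) sit at 0 UMIs.

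The name of these neurons was checked against its 6 markers. NXPH1 and ALK, which chose them, had a UMI in 94 and 92 of 95 nuclei. KCNC2, a fast voltage-gated potassium channel subunit, had a UMI in 93 of 95 nuclei, and COL19A1, a collagen, in 58 of 95. LHX6 had 104 UMIs in 48 of 95 nuclei, or 50.5% (40.1 to 60.9%), at 148 CPM (121 to 179). Its highest nucleus had 5 UMIs. SST had 121 UMIs in 22 of 95 nuclei, or 23.2% (15.1 to 32.9%), at 172 CPM (143 to 205). Of those UMIs, 34 and 20 came from 2 nuclei, and without them the level was 98.0 CPM (76.0 to 124). It was 103 CPM in the 79 nuclei with precursor genes under 1000 CPM. At least 1 of LHX6 and SST was seen in 51 nuclei, so the name applies by direct evidence to that many of the 95.

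Neither LHX6 nor SST was at background in these nuclei. With each nucleus thinned to 2000 UMIs, LHX6 was seen in 30.5% of the NXPH1/ALK neurons, in 0.966% of the remaining neurons and in 0 of 98 oligodendrocyte-gene barcodes, which allows up to 3.06%. SST was seen in 13.7%, 0.552% and 2.04% of these sets. Counted over the whole pre-processed library, the 95 nuclei held 67.1% of its LHX6 UMIs, 55.3% of its SST UMIs and 52.4% of its PNOC UMIs. For the markers KCNC2 and COL19A1 the shares were 46.8% and 25.5%, so most of their UMIs lay outside. The other SST UMIs were 31 in 9 other neurons, 49 in 12 deep barcodes that missed the SYT1 or precursor limit, and 18 in 12 barcodes under 2000 UMIs. So the rule reached most of the LHX6 signal, and left a considerable part of the SST signal outside. KIT, a receptor tyrosine kinase found in other interneurons, was divided differently, with 33.4% of its UMIs inside and 47.9% in other neurons.

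No such neuron was found after processing. The same rule took 0 of the 120 post-processed barcodes with at least 2000 UMIs, which allows a share of up to 2.5%. None of those 120 passed the neuron limits either, and of 405 post-processed barcodes with at least 200 UMIs 0 reached the SYT1 limit. Summed over all barcodes, NXPH1 was at 695 CPM before and 64.2 CPM after processing, and ALK at 205 and 42.8 CPM. LHX6 was at 16.2 CPM before and 5.04 CPM after, from 155 and only 4 UMIs. KCNC2 was at 728 and 31.5 CPM (6978 and 25 UMIs) and GRIN3A at 125 and 6.30 CPM (1196 and 5 UMIs). SST was at 22.9 and 0 CPM (219 and 0 UMIs). ERBB4, a neuregulin receptor, was closer between the libraries, at 4082 CPM before and 3390 CPM after, and it was also at 5181 CPM in the oligodendrocyte-gene barcodes of the pre-processed library. Whether fewer nuclei of this kind entered the second library or were lost to its shallow depth (median 146 UMIs per barcode) cannot be told apart from 1 library of each.

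Against the remaining neurons, the NXPH1/ALK neurons had higher levels of LHX6, of 3 DLX genes, of 4 neuropeptide genes and of 4 of 8 ionotropic glutamate receptor genes, and lower levels of excitatory neuron genes. Of 6720 genes with at least 20 UMIs in both sets together, 579 were at least 2-fold higher in the NXPH1/ALK neurons (8.62%) and 687 at least 2-fold lower (10.2%), so that 18.8% of genes differed by that much. The median log2 ratio over all tested genes was 0.05. The higher genes were 45.7% of those 2-fold apart, and 82.3% with 5 counts added in place of 0.5, which moved the median of all genes to 0.33. Ratios are of summed CPM with 0.5 counts added. Both sets were cut from the same 832 neurons by gene levels, RELN and VIP among them. Every difference below therefore describes these nuclei and tests nothing.

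A list of 13 genes combined factors of the medial ganglionic eminence with genes shared by interneurons at large, such as the DLX factors and ELAVL2, which encodes an RNA-binding protein. Of these, 8 were among the genes listed in the files and 7 had enough UMIs. Of the 7, 6 were at least 2-fold higher and 0 lower, at a median log2 ratio of 3.32 beside 0.05 for all genes. LHX6 stood highest of all named genes outside the rule, at 148 CPM against 1.68 CPM, a log2 ratio of 6.39 (5.52 to 7.56). DLX6, DLX5 and DLX1, homeobox factors of the GABA lineage, had log2 ratios of 5.22 (4.16 to 6.60), 4.22 (2.91 to 5.79) and 3.32 (2.71 to 3.93). At least 1 UMI of DLX1, DLX2, DLX5 or DLX6 was seen in 58 of 95 NXPH1/ALK neurons and in 32 of 725 remaining neurons. ELAVL2 was higher by 2.41 (2.24 to 2.59) and SATB1, a chromatin organizer needed for SST neurons, by 1.05 (0.93 to 1.17). SATB1 was thus also common in the remaining neurons, at 474 CPM against 983 CPM. ETV1, a factor of the ETS family, lay under the 2-fold limit at 0.32 (-0.21 to 0.79).

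Peptide genes were compared next, as summed levels, since each was seen in only part of the nuclei. Of 6 neuropeptide genes with enough UMIs, 4 were at least 2-fold higher and 1 lower, at a median log2 ratio of 3.35. SST was at 172 CPM against 5.21 CPM, a log2 ratio of 5.03 (4.46 to 5.66). PNOC, the precursor of the opioid-like peptide nociceptin, was at 155 CPM against 8.91 CPM, a log2 ratio of 4.11 (3.63 to 4.62), and was seen in 38 of 95 nuclei. TAC1, the precursor of substance P, had a ratio of 4.20 (2.98 to 5.66) and CRH, the corticotropin-releasing hormone, one of 2.59 (1.38 to 3.73), both at low levels of 25.6 and 17.0 CPM. PENK, the enkephalin precursor, was lower at -2.32 (-5.70 to -0.75). The genes that process peptides did not share this direction. Of 6 of those, 1 was 2-fold higher, the granin SCG2 at 1.59 (1.24 to 1.91), and 2 were lower. These were the convertase PCSK1 at -1.50 (-1.83 to -1.20) and the vesicle priming factor CADPS2 at -2.40 (-2.68 to -2.15).

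Genes listed for 3 interneuron classes were read next, although several of them are found in more than 1 class. Of 8 genes listed for SST neurons 5 were 2-fold higher and 1 lower (median 1.48). KCNC2 was at 4642 CPM against 257 CPM, a log2 ratio of 4.18 (4.09 to 4.27), and GRIN3A, an NMDA receptor subunit, at 780 CPM against 30.3 CPM, one of 4.68 (4.44 to 4.94). COL19A1 was higher by 1.94 (1.77 to 2.10), and the phosphodiesterase PDE1A was the 1 gene lower, at -2.21 (-2.42 to -2.03). Of 5 genes listed for PVALB neurons 4 were higher (median 3.66), with ERBB4 at 19968 CPM against 1578 CPM and EYA4, a transcriptional cofactor, at a log2 ratio of 4.02 (3.60 to 4.46). PVALB itself had only 10 UMIs in 8 nuclei. Of 7 genes listed for interneurons of the caudal ganglionic eminence 5 were higher and 0 lower (median 2.67), among them RELN, a secreted guidance protein, at 1542 CPM against 52.6 CPM, NDNF, a secreted neurotrophic factor, at a ratio of 4.09 (3.36 to 4.90), and KIT at 2.92 (2.53 to 3.31). Neurons outside the NXPH1/ALK set with at least 5 UMIs and 2000 CPM of RELN and VIP summed were kept out of the remaining neurons. The RELN ratio was thus partly fixed by the choice of sets. How far that choice also moved KIT, NDNF and other genes of this list was not tested. ERBB4 and KCNC2 do not separate the classes here, since they were also at 33314 and 3351 CPM in the RELN/VIP neurons.

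**Figure D2:**
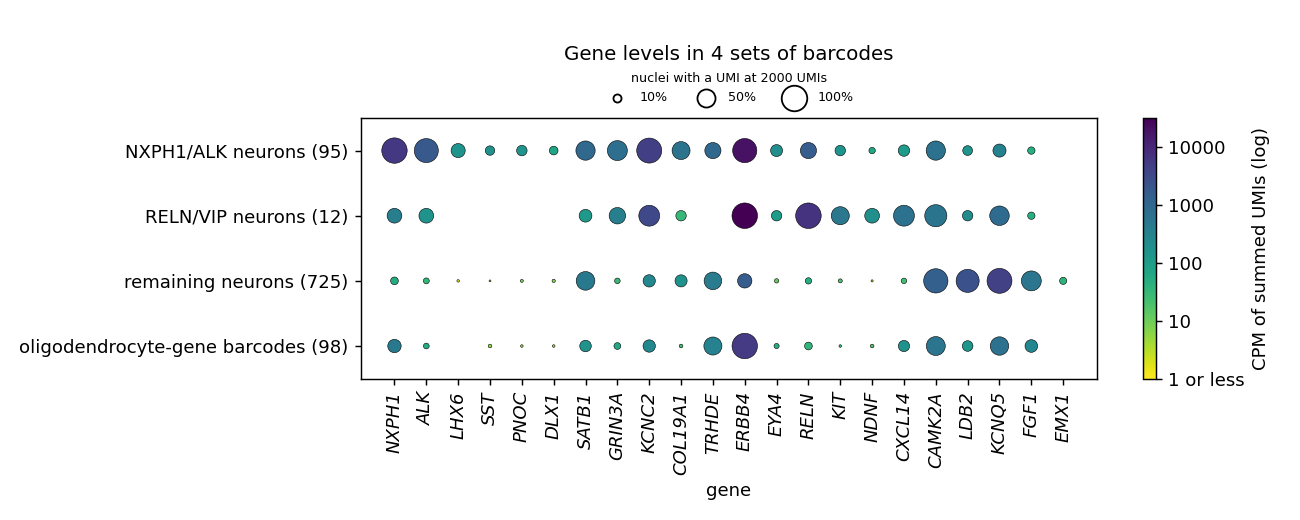
Levels of 22 genes (columns) in 4 sets of barcodes of the pre-processed library (rows, number of barcodes in brackets). Colour gives CPM of summed UMIs on a log scale, and dot area the share of nuclei with a UMI after thinning to 2000 UMIs. LHX6 is seen in 30.5% of the NXPH1/ALK neurons and 0.966% of the remaining neurons, while ERBB4 is also high in oligodendrocyte-gene barcodes at 5181 CPM.

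Receptor genes for glutamate and GABA were compared by list. Of 8 ionotropic glutamate receptor genes 4 were 2-fold higher and 0 lower, at a median log2 ratio of 1.20. GRIA1, an AMPA receptor subunit, was at 6298 CPM against 2206 CPM, GRIK1, a kainate receptor subunit, at 5206 CPM against 1554 CPM, and GRIK3, also of kainate receptors, at 757 CPM against 255 CPM. The fourth was GRIN3A, which like GRIK1 is also on the list for SST neurons, and the remaining 4 lay under 2-fold, the lowest at -0.57. The 7 GABA-A receptor genes had a median of 0.06, with 0 higher and 2 lower, GABRA2 at -1.03 (-1.24 to -0.83) and GABRB1 at -1.09 (-1.21 to -0.98). None of 3 metabotropic glutamate receptor genes differed 2-fold.

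Potassium channel genes differed in both directions. Of 21 genes 3 were 2-fold higher and 7 lower, at a median of -0.10. Beside KCNC2, the higher genes were the accessory subunits KCNMB2 at 2.28 (2.17 to 2.39) and KCNAB1 at 1.97 (1.88 to 2.06). The lower genes were led by KCNQ5, a subunit of the M-type current, at 342 CPM against 4191 CPM and a log2 ratio of -3.61 (-3.80 to -3.43). KCNIP4, which binds channels of the A-type current, was at 3189 CPM against 22688 CPM, a ratio of -2.83 (-2.89 to -2.77). The other 5 were KCNMB4, KCNH7, KCNC4, KCNN3 and KCNB2, at -2.59 to -1.04. Sodium and calcium channel genes stayed mostly under 2-fold, with 1 of 13 higher (SCN9A, at 34.1 CPM) and 2 lower (HCN4 and CACNA2D1).

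Partners of the genes in the rule were also measured. Of 7 further genes of neurexins and their partners 3 were higher and 1 lower. NXPH2, the closest relative of NXPH1 listed, was at 294 CPM against 102 CPM, a log2 ratio of 1.53 (1.29 to 1.75), and the adhesion genes CNTNAP2 and CNTNAP5 were at 1.52 (1.49 to 1.54) and 1.07 (1.01 to 1.13). LRRTM4, a postsynaptic neurexin ligand, was at -1.02 (-1.50 to -0.61). Of 5 genes for ligands and receptors of the ALK and ERBB families 2 were higher. ALKAL2, a ligand of ALK, had 15 UMIs in 8 of the 95 nuclei, at a ratio of 1.43 (0.46 to 2.26), while ALKAL1, the other ligand, had 0 UMIs in them, which allows up to 4.26 CPM. ERBB4 had a ratio of 3.66 (3.62 to 3.70). None of 4 perineuronal net genes and none of 6 pan-neuronal genes differed 2-fold.

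Of the 12 genes with the highest ratios, those not yet named were TRPC7, a cation channel (3.89), COL15A1, a collagen of basement membranes (3.82), ABTB3 (3.67) and RERG, a small GTPase of the RAS family (3.64). Over the 51 nuclei with an LHX6 or an SST UMI alone, an alternative added after the data were seen, RERG was at 0.14, TRPC7 at 2.03 and COL15A1 at 2.14. The genes with the lowest ratios were genes of excitatory neurons and others. ADAMTS2, a protease of procollagen, had 299 UMIs in the remaining neurons and 0 in the NXPH1/ALK neurons, which makes it at least 11.8-fold lower, a bound computed with 3 counts in the set at 0. Its log2 ratio was -2.69 when 1000 CPM of NXPH1 and ALK was enough, a smaller difference than that bound. EMX1, a homeobox factor of the excitatory lineage, had 1 UMI against 230, a log2 ratio of -4.19 (-10.08 to -2.27). LDB2, a LIM domain binding protein, was at 151 CPM against 2421 CPM, a ratio of -4.00 (-4.30 to -3.73), and FGF1, a growth factor, at 48.3 CPM against 554 CPM, a ratio of -3.50 (-4.05 to -3.03). The other 7 of the 12, next to KCNQ5, were CRABP2, TAMALIN, SYNPO2, C1H1orf87, FREM1, ANKRD33 and FAP, between -3.75 and -3.16.

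Markers of other cell types were read as measured facts. All 8 excitatory neuron markers counted here had ratios under 0 and 6 were at least 2-fold lower, at a median of -1.44. CAMK2A, a kinase of excitatory synapses, was at 675 CPM against 1397 CPM and was seen in 56.8% of thinned NXPH1/ALK neurons, 90.3% of remaining neurons and 55.1% of oligodendrocyte-gene barcodes, so its share lay near that of non-neuronal barcodes. CAMK2A reached 1000 CPM in 15 of the 95. Of 4 oligodendrocyte markers all were 2-fold higher than in the remaining neurons, at a summed 212 CPM against 90.4 CPM, with UGT8 at 102 CPM where the oligodendrocyte-gene barcodes had 1955 CPM. Astrocyte markers were 2-fold higher for 2 of 5, at a summed 882 CPM against 559 CPM, and microglia markers lower for 2 of 5, at 65.3 against 87.4 CPM. Immediate early genes were 2-fold lower for 3 of 8 and higher for 0. The part of other cells' RNA in these differences was not tested.

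**Figure D3:**
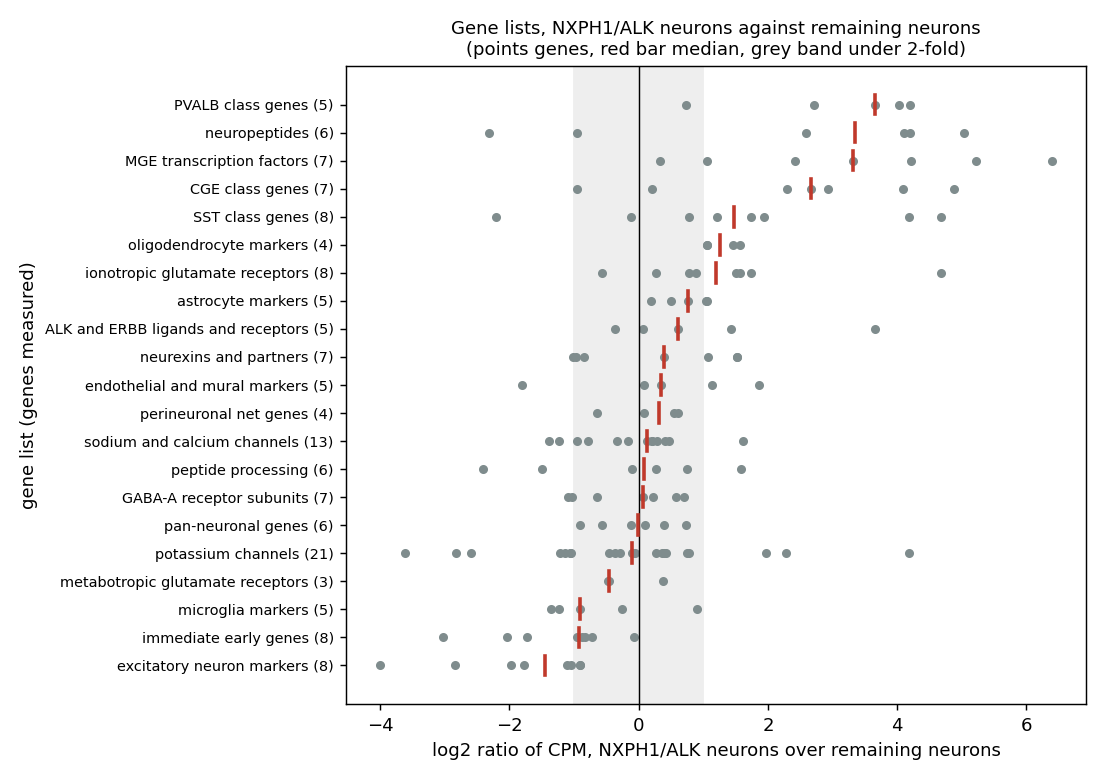
Log2 ratio of CPM, NXPH1/ALK neurons over remaining neurons (horizontal axis), for the genes of 21 lists (rows, number of genes measured in brackets). Grey points are genes, red bars the list medians, and the grey band marks ratios under 2-fold. The medians run from 3.66 for genes of the PVALB class to -1.44 for excitatory neuron markers.

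The 12 RELN/VIP neurons were taken as a second reference, to see which genes stand apart from neurons chosen by RELN and VIP outside the NXPH1/ALK set. With 65347 UMIs in these 12 nuclei, a gene at 0 UMIs can be as high as 45.9 CPM, and most high ratios are bounds. Of 3950 genes tested, 516 were at least 2-fold higher in the NXPH1/ALK neurons (13.1%) and 332 lower (8.41%), 21.5% in all. The median log2 ratio of all genes was 0.01. With 5 counts added it was -0.77, and 42 genes were higher and 1488 lower, so the balance of directions in this comparison rests on that setting. RELN and VIP defined the reference and were left out.

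TRHDE, SST, PNOC and LHX6 were on the higher side. TRHDE, the ectoenzyme that degrades thyrotropin-releasing hormone, was at 1003 CPM in the NXPH1/ALK neurons and at 0 UMIs in the RELN/VIP neurons, at least 21.8-fold higher. That bound holds for these 12 nuclei, since the log2 ratio of TRHDE was 3.51 when SYT1 of 2000 CPM was enough to count as a neuron and 3.24 when RELN and VIP summed needed only 1000 CPM. SST, PNOC and LHX6 were also at 0 UMIs there, which makes them at least 3.74-fold, 3.37-fold and 3.22-fold higher. COL19A1 had a log2 ratio of 4.02 (2.48 to 7.40), ROR1, a receptor of WNT5A, one of 4.30 (2.97 to 6.81), and SEMA3E, a secreted semaphorin, one of 3.43 (1.52 to 9.33). PLCH1, ABCA7, DKK2, PDE3A and BMAL2 were at least 3.71-fold, 3.59-fold, 3.56-fold, 3.53-fold and 3.19-fold higher. The bounds of PLCH1, ABCA7, PDE3A and BMAL2 also depended on the limits. With SYT1 at 2000 CPM the log2 ratio of PDE3A turned to -1.22 and that of PLCH1 fell to 0.65, under 2-fold. ABCA7 was at 1.34 with NXPH1 and ALK at 4000 CPM or more, and BMAL2 at 1.07 with RELN and VIP at 1000 CPM. SATB1 was higher by 2.92 (2.02 to 4.22) and CNTNAP5 by 2.92 (2.45 to 3.48).

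Several genes lay within 2-fold of the RELN/VIP neurons. DLX1 had a log2 ratio of -0.17 (-1.37 to 1.63), ELAVL2 one of 0.05 (-0.40 to 0.58), KCNC2 one of 0.47 (0.27 to 0.67) and GRIK1 one of 0.69 (0.49 to 0.90), none of them 2-fold. KCNC2 passed 2-fold, at 1.26, with RELN and VIP at 1000 CPM. ERBB4 was at 19968 CPM in the NXPH1/ALK neurons and 33314 CPM in the RELN/VIP neurons. Genes listed for SST neurons were 2-fold higher for 2 of 8, COL19A1 and TRHDE, and lower for 0, at a median of 0.58. Those listed for PVALB neurons were higher for 1 of 3, SULF1, and lower for 0. Of 6 genes tested from the list that holds LHX6, the DLX factors and ELAVL2, 4 were 2-fold higher and 0 lower, of which DLX6 at 1.21 (-0.79 to 7.12) and ETV1 at 1.33 (-0.67 to 7.23) had intervals that include 0. Of 5 further genes of the caudal class, 4 were lower and 0 higher, at a median of -1.80. CXCL14, a chemokine, was at 112 CPM against 673 CPM, CNR1, a cannabinoid receptor, at 62.5 against 275 CPM, KIT at 151 against 520 CPM and NDNF at 66.7 against 184 CPM. Among genes with at least 100 UMIs in the RELN/VIP neurons, the lowest ratios were -1.76 (-2.05 to -1.45) for PTPRO, a receptor tyrosine phosphatase, -1.65 (-1.83 to -1.45) for ST6GALNAC5, a sialyltransferase, and -1.49 (-1.62 to -1.36) for DAB1, the intracellular adaptor of reelin signalling. CACNA2D1, NYAP2, KCNB2 and GRIK2 followed at -1.48 to -1.04, of which GRIK2 was at -0.44 with RELN and VIP at 1000 CPM. LINGO2, DSCAM, EPHA5, ST6GALNAC3 and NLGN1 were under 2-fold, the last 4 at -0.88 to -0.84.

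The 95 nuclei were not uniform. With all nuclei thinned to 2000 UMIs, the variance of UMIs over nuclei was 24.0 times the mean for ERBB4, 21.7 times for RELN, 15.3 times for CNTNAP2, 14.8 times for KCNIP4 and 13.5 times for GRIK1, where counting alone gives about equal variance and mean. ERBB4 ran from 0 to 61592 CPM with a median of 22533 CPM and quartiles of 5184 and 30606 CPM, and 18 nuclei had less than 2000 CPM. Those 18 were of similar depth to the rest, with medians of 6932 and 6665 UMIs, and held 82 of the 121 SST UMIs and 482 of the 706 TRHDE UMIs. They had 0 UMIs of PVALB, NDNF and COL15A1. RELN was at 0 UMIs in 51 nuclei and reached 19568 CPM in another.

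UMIs of SST and KIT were not seen in the same nucleus. Of the 95 nuclei, SST had at least 1 UMI in 22 (median 7134 UMIs) and KIT in 23 (median 6790 UMIs). None had both, and 50 (median 6623.5 UMIs) had neither. This division was made after the values were seen, and a nucleus without a UMI may still express the gene. Both genes were sparse, and how much overlap such sparse detection alone would give was not tested, for SST with KIT or with NDNF. Of the 22 nuclei with SST, 19 had an LHX6 UMI, 22 a TRHDE UMI and 0 an NDNF or COL15A1 UMI. Of the 23 with KIT, 5 had an LHX6 UMI, 10 an NDNF UMI and 17 a COL15A1 UMI. Over all 95 nuclei, LHX6 was seen in 48, TRHDE in 51 and COL15A1 in 36. NDNF was seen in 12 of the 95 nuclei, each with a RELN UMI and none with an LHX6 or an SST UMI. NPY, the peptide neuropeptide Y, was seen in 3 nuclei, all of them with SST, and PVALB in 8, all of them in the third set. The 48 nuclei with an LHX6 UMI had a median of 8578 UMIs and the 47 without one 4254 UMIs. The part of depth in the detection of LHX6 was not tested.

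**Figure D4:**
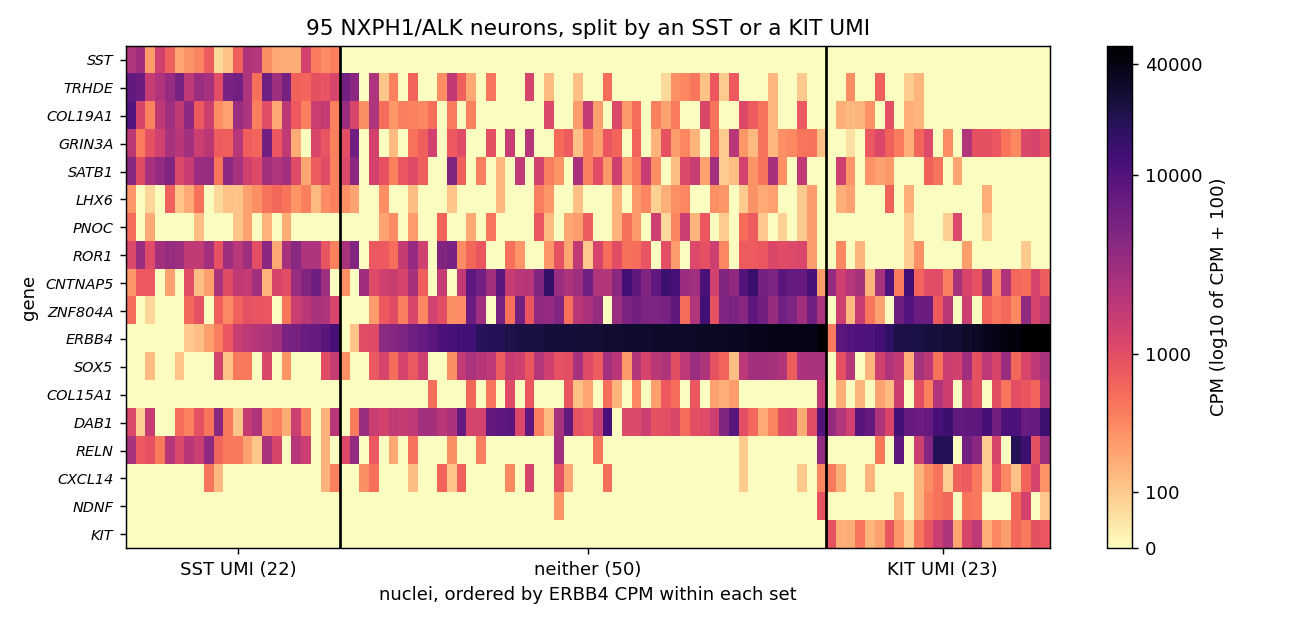
CPM of 18 genes (rows) in each of the 95 NXPH1/ALK neurons (columns), coloured on the scale log10 of CPM plus 100. Black lines part the 22 nuclei with an SST UMI, the 50 with neither and the 23 with a KIT UMI, and nuclei are ordered by ERBB4 within each. ERBB4 is low in most nuclei with SST and reaches 61592 CPM among those with KIT.

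The nuclei richest in SST were compared with those lacking it. In 13 nuclei with at least 3 SST UMIs (median 6603 UMIs) against 73 with 0 (median 6665 UMIs), leaving aside 9 with 1 or 2 UMIs, 237 of 3537 genes were at least 2-fold higher (6.70%) and 471 lower (13.3%). SST in the 13 ran from 270 to 2977 CPM with a median of 741 CPM. The gene with the highest ratio was NKAIN3, which binds the sodium pump, at a log2 ratio of 3.79 (3.36 to 4.25). COL6A2, a chain of collagen VI, was seen in 13 of 13 nuclei against 20 of 73, at 3.31 (2.73 to 3.93). TRHDE was also seen in 13 of 13, at 3113 CPM against 319 CPM and a ratio of 3.28 (3.01 to 3.57). GRIK1 was at 11917 CPM against 3233 CPM, a ratio of 1.88 (1.77 to 1.99), and SATB1 at 2138 CPM against 692 CPM. COL19A1, the phosphodiesterases PDE7B and PDE1C, the proprotein convertase PCSK5, the RAC regulator CHN2 and the kinase MAP3K5 were higher by 1.87 to 2.75.

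ERBB4 differed in the other direction. It was at 1392 CPM (1161 to 1657) in the nuclei rich in SST, with a median of 130 CPM and 5 of 13 nuclei at 0, and at 26180 CPM (25743 to 26622) in the nuclei without SST, with a median of 26182 CPM and 1 of 73 at 0. The ranges overlapped, since the highest nucleus of the 13 had 7421 CPM. SOX5, a transcription factor, had 8 UMIs in 3 of the 13 nuclei and 814 UMIs in 67 of the 73. Of the 10 genes with the lowest ratios 9 had 0 UMIs in the 13 nuclei. EDIL3, an integrin ligand of the extracellular matrix, was at least 16.9-fold lower (a log2 ratio of -1.77 when 1 SST UMI was enough), COL15A1 at least 11.2-fold, ARAP2 at least 10.5-fold, IGSF21, an adhesion molecule of inhibitory synapses, at least 8.02-fold and KIT at least 6.16-fold. The value for KIT restates that no nucleus had both SST and KIT. PELI2, PLEKHH1, COL11A1 and GRB10 were at least 4.30-fold to 7.03-fold lower. ADRA1A, an adrenergic receptor, had 1 UMI against 234, a ratio of -4.77 (-10.66 to -2.86).

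The nuclei richest in KIT differed in other genes. In 18 nuclei with at least 2 KIT UMIs (median 7709.5 UMIs) against 72 with 0 (median 6634 UMIs), leaving aside 5 with 1, 223 of 3732 genes were at least 2-fold higher (5.98%) and 432 lower (11.6%). RERG had the highest log2 ratio, 4.52 (3.82 to 5.35), followed by GRB10, a receptor adaptor, at 3.69 (2.90 to 4.62). RELN was at 5704 CPM against 523 CPM, a ratio of 3.45 (3.25 to 3.65), and was seen in 13 of 18 nuclei against 30 of 72. The 72 include the 22 nuclei with SST, of which 19 had a RELN UMI, at 1005 CPM. Detection of RELN thus did not set the KIT-rich nuclei apart from those with SST. SPHKAP, COL5A1, C1QTNF7, the potassium channel KCNK13, the calcium release channel RYR3, the vesicle protein SV2C and the transcription factor NFIB were higher by 2.72 to 3.32. DAB1 was at 8315 CPM against 1966 CPM. DAB1 had a UMI in all 18 nuclei, at a median of 8210 CPM, while RELN was uneven, at a median of 2297 CPM with 5 nuclei at 0 UMIs and a highest of 19568 CPM.

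On the lower side of the KIT-rich nuclei stood SST, some genes that were higher in the nuclei rich in SST, and others. SST had 0 UMIs in the KIT-rich nuclei and was at least 10.7-fold lower, which restates that no nucleus had both genes. OPRD1, the delta opioid receptor, and DKK2, a modulator of WNT signalling, also had 0 UMIs and were at least 9.57-fold and 9.48-fold lower. ROR1 was at 35.4 CPM against 1385 CPM, a log2 ratio of -5.15 (-6.92 to -4.06). TRHDE was at -4.44 (-5.75 to -3.54), PLCH1 at -4.37 (-10.26 to -2.44), NKAIN3 at -4.12 (-6.17 to -2.92) and PNOC at -3.43 (-6.81 to -1.86). PLEKHD1 and OVCH1 were at least 5.41-fold and 4.96-fold lower. In the nuclei rich in SST, TRHDE, NKAIN3, ROR1, DKK2 and PLCH1 were at higher CPM than in the nuclei without SST. OPRD1 and PNOC were not, at 98.7 against 161 CPM and 87.7 against 187 CPM. LHX6 was seen in 3 of the 18 nuclei against 43 of 72, but its level of 84.9 CPM against 167 CPM was under 2-fold apart. SATB1 was at 127 CPM against 1246 CPM, with UMIs in 4 of the 18 and 60 of the 72.

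**Figure D5:**
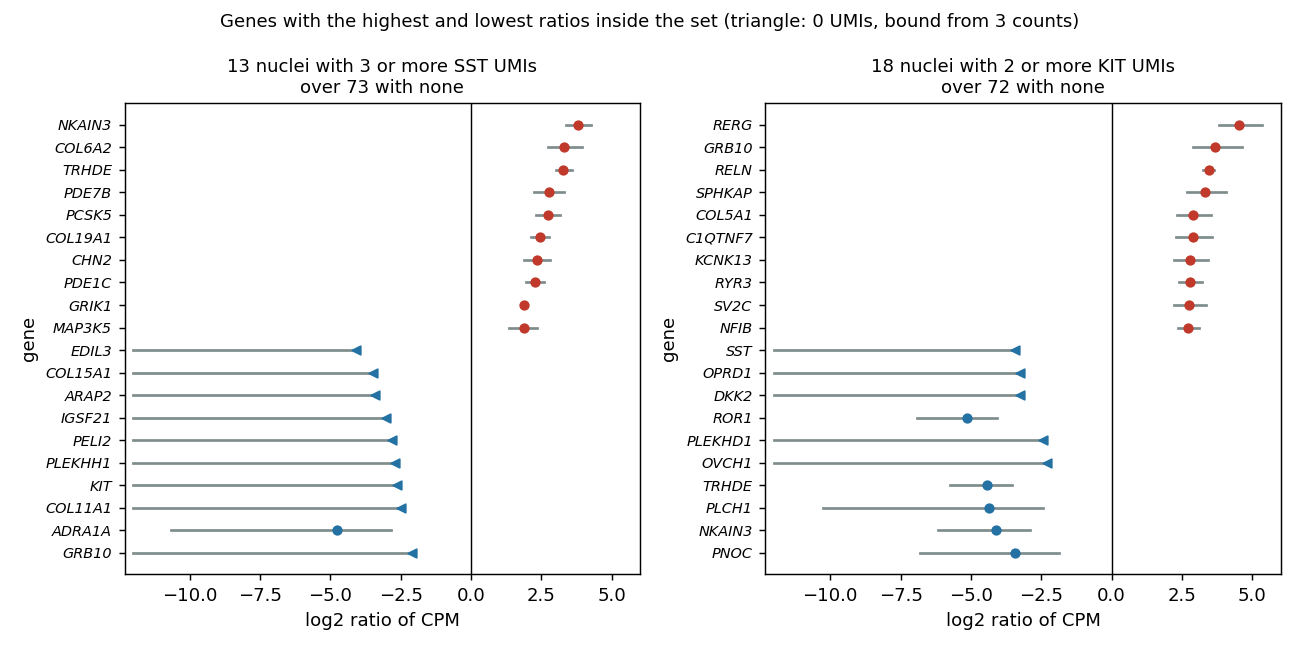
Log2 ratio of CPM (horizontal axis) for the 10 highest and 10 lowest genes of each split within the NXPH1/ALK neurons, with 95% counting intervals. Left, 13 nuclei with at least 3 SST UMIs over 73 with 0. Right, 18 with at least 2 KIT UMIs over 72 with 0. Triangles mark genes at 0 UMIs in the first set, placed at the bound from 3 counts with the line running down from it, as for EDIL3 on the left and SST on the right.

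The 50 nuclei with neither gene formed the largest share and were themselves mixed. ERBB4 was at 25493 CPM in them (24967 to 26027), with a median of 26538 CPM and 1 nucleus at 0. LHX6 was seen in 24 of the 50. PNOC was seen in 27 of them, at 257 CPM (207 to 316) against 60.7 CPM in the nuclei with SST and 46.3 CPM in those with KIT. OPRD1 was seen in 28 of them, in 8 of 22 nuclei with SST and in 1 of 23 with KIT. CNTNAP5 was at 5694 CPM, against 1723 and 2478 CPM in the other sets, ZNF804A, a zinc finger gene, at 3676 CPM against 718 and 2397 CPM, and KCNC2 at 5845 CPM against 2932 and 3994 CPM. The PVALB UMIs, 10 in 8 nuclei, all lay here. PNOC, OPRD1, CNTNAP5 and KCNC2 were thus at their highest of the 3 sets here.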

How the data were processed

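The authors deposited UMI counts per gene and barcode, whole numbers without normalization. DRAGEN is named in the submitters' processing notes and Seurat in the series design. Its version, the genome build and the way barcodes were called are not stated there, and coordinates are left out. Counts of rows sharing a symbol were summed (13765 features, 12652 symbols, all found in the RefSeq table of ARS-UI_Ramb_v3.0). From the counts, sums per set of nuclei were turned into CPM with Python 3.11.15, numpy 2.4.6, scipy 1.17.1 and pandas 2.3.3. Log2 ratios add 0.5 counts, and genes had at least 20 UMIs in both sets together. Sums carry exact Poisson, shares exact Clopper-Pearson and ratios exact conditional binomial 95% intervals. A gene at 0 gets a bound from 3 counts per set. Thinning used 2000 UMIs. All cover counting error only. The code was checked on simulated data. Grouping came from the sample titles.

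Named genes are the 6 markers, members of 23 gene lists, the 12 highest and 12 lowest ratios per comparison (at least 100 UMIs and 20% of nuclei in the higher set) and the 10 highest and 10 lowest per split (at least 50 UMIs). Names with LOC numbers and genes of the rule were left out. Genes of the lists that the files do not list were not measured, and counts of tested genes leave them out. One gene of the lists is not reported here and is outside their counts. SOX5, DAB1, ZNF804A and the KIT split were picked after values were seen. The nuclei and gene lists were chosen with earlier results of these data known. Alternatives changed the limits of the rule, the counts added, the UMI minimum, the weighting of nuclei, the scaling and the depth.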

Additional observations from a re-analysis of the deposited data

How the results depend on the processing

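The rule took 69 to 110 nuclei over its alternatives, against 95. The SST level of 172 CPM was 216 CPM with NXPH1 and ALK at 4000 CPM or more, 103 CPM with precursor genes under 1000 CPM and 98.0 CPM without the 2 nuclei richest in SST, an alternative added after the data were seen. Against the remaining neurons, 1266 genes were 2-fold apart, 626 with a minimum of 100 UMIs and 3093 with 1 UMI. Of the 1266, 45.7% were higher, but 82.3% of 1422 with 5 counts added, where the median of all genes was 0.33, and 68.9% with 1 UMI. Against the RELN/VIP neurons 848 genes became 1530 with 5 counts added (42 higher, 1488 lower, median of all genes -0.77), 182 with 100 UMIs (130 higher), 3317 with 1 UMI (855 higher) and 409 after thinning. The counts added weigh more in the 12 nuclei of that set. PDE3A against the RELN/VIP neurons, at 0 UMIs there, turned to -1.22 with SYT1 at 2000 CPM. Of 796 values of named genes under alternatives, 651 stayed within the counting interval of the reported value, 144 left it, and 1 reversed. The cause of these shifts was not tested. Without the 15 NXPH1/ALK neurons at 1000 CPM of CAMK2A, 1401 and 739 genes were 2-fold apart. The count for the SST split, 708, was 539 to 749.

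No paired analysis was possible because each condition has 1 library and no result comes from a test. A gene at 0 UMIs in the 12 RELN/VIP neurons can be as high as 45.9 CPM. Low genes such as PVALB, NPY and CRH rest on 8 to 12 UMIs in the 95 nuclei.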
